A study of Mus musculus with 6 samples.

Results

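The interferon response and antigen presentation genes are 40 mouse genes that were picked from the count table by gene symbol, and all 40 were found among its 35275 genes. Their transcripts were measured by RNA-seq in 6 libraries of NIH3T3 cells, an established line of mouse embryo fibroblasts. Of these, 3 libraries were labelled NgBR overexpression and 3 came from wild-type cells. NgBR is the Nogo-B receptor, which is encoded by Nus1. Per the labels' protocols, the overexpressing line was made by transfecting a pIRES-NgBR plasmid with an HA tag, and stable cells were obtained with G418. Wild-type cells have no transfection or selection in their labels. The labels do not say whether the stable line was 1 clone or a pool, nor which promoter drove the insert. Both groups grew in DMEM with calf serum and antibiotics, and the labels name no interferon, virus or other stimulus, so the values below are levels in cultures with no stated stimulus.

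Interferons are secreted proteins that cells release when they sense viral nucleic acid. Type I interferon binds the receptor chains IFNAR1 and IFNAR2 and acts through the kinases JAK1 and TYK2 on a complex that holds STAT2 and IRF9. This complex binds the interferon-stimulated response element, or ISRE, in the promoters of antiviral genes. Type II interferon acts through IFNGR1 and IFNGR2 on genes with a gamma-activated site, or GAS, and it is best known for raising the genes by which cells show peptides on class I molecules. Fibroblasts make little of most of these transcripts at rest and raise them when interferon arrives.

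The library totals were 7369961, 10358381 and 10082223 counts in NgBR overexpression libraries 1 to 3, against 35511769, 29515072 and 32196873 in wild-type libraries 1 to 3. Depth thus runs with the groups, with a mean that was 3.50 times as high in wild type. Levels are given as CPM, counts scaled to a common library size that includes TMM factors. A sum of 3 counts over the NgBR overexpression libraries corresponds to 0.108 CPM, and over the wild-type libraries to 0.0307 CPM. The second principal component, with 28.6% of the variance, set both libraries numbered 2 apart from the other 4 libraries. Nus1, the gene of the labelled overexpression, had 184, 185 and 165 CPM in the NgBR overexpression libraries, against 212, 187 and 233 CPM in wild type (log2 fold change -0.24, edgeR adjusted p = 0.786). These counts did not rise with the label, and the sources used here do not say whether reads of the transgene could be counted there. Directions below are therefore those of the libraries labelled NgBR overexpression. The labels do not say whether libraries of a group came from separate cultures, so p-values speak only of the spread among these 6, part of which may be technical. In bulk RNA, fewer cells that express a gene and less of its RNA per cell cannot be told apart.

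Promoters of the members were read for the ISRE and the GAS, the elements through which the response is known to act. Windows of 300 bases, from 250 before to 50 after the start of the gene, came from RefSeq on GRCm38.p6 and were matched for 31 of the 40 members. The ISRE core was searched as GAAANNGAAA and the GAS as TTCNNNGAA, each on both strands. An ISRE core lay in the windows of 16 of the 31 members, 51.6%, while 3.49% of 27025 mouse genes have it. A GAS lay in 9 members, 29.0%, against 8.47% of all genes, and 5 members held both. The stretches below belong to members with an ISRE core that had the highest mean CPM or the largest log2 fold change, in size, among the tested members of their role. Each is written 5′ to 3′ on the strand of its gene, with the letters of the ISRE core in capitals, read as TTTCNNTTTC where it lies on the other strand.
Stat2 (chr10:128270251-128270310): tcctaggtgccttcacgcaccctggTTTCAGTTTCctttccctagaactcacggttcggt
Ddx58 (chr4:40239804-40239833): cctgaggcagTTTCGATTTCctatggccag
Ifit1 (chr19:34640760-34640838): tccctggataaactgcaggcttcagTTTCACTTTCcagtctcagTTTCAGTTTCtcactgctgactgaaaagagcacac
Bst2 (chr8:71537562-71537627): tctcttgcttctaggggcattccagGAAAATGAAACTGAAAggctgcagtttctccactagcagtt
Eif2ak2 (chr17:78882535-78882564): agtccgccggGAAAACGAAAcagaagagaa
Gbp7 (chr3:142530258-142530317): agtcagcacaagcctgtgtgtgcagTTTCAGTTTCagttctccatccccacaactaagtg
Irgm1 (chr11:48871421-48871475): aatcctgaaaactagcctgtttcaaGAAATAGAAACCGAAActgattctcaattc

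Stat2, Ifit1 and Gbp7 have the core on the opposite strand within their upstream stretch, and Ifit1 has it at 2 places, whose first bases lie 104 and 85 bases before the start. In Bst2 and Irgm1, 2 cores overlap in a single run. The cores of Ddx58 and Eif2ak2 lie just after the annotated start, at bases 3 and 19. A match is a description of these letters and does not show that a factor was bound there. Isg15, outside this selection, had 3 overlapping cores between 78 and 66 bases before its start.

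No interferon response or antigen presentation member passed the test in either direction. Most estimates lay within 1.5-fold of no difference, as did those of most genes tested. Genes were tested with edgeR's quasi-likelihood test and called where the p, adjusted after Benjamini and Hochberg, was under 0.05 over all 12651 genes that passed a filter on low counts. Of the 40 members, 28 passed that filter, and 0 of the 28 were called, while 3.39% of all genes tested were. DESeq2, which called 4.74% of the genes it tested, and limma-voom also called 0 members. At an unadjusted p under 0.05 there were 3 members, H2-K1, Bst2 and Gbp7, or 10.7%, against 11.4% of all genes. All 3 were lower, and 5.11% of all genes were lower at that p. The lowest edgeR adjusted p was 0.311, that of H2-K1.

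Log2 fold changes, NgBR overexpression over wild type, lay between -1.48 for Gbp7 and 0.50 for Irf9. Their median was -0.19, beside -0.01 over all genes tested, and 22 of 28 were negative, 78.6% against 51.3% of all genes. For 21 of 28 members the estimate was within 1.5-fold in either direction, against 10223 of the 12651 genes tested. For 11 members the 95% interval lay within 2-fold in both directions, against 6891 of the 12651 genes tested. For the other 17 members it reached past a 2-fold difference. For 8 members, 28.6%, the groups had separate CPM ranges, against 18.6% of all genes. In 6 of these, Dhx58, Bst2, Gbp2, Gbp7, Tap2 and H2-K1, every NgBR overexpression library lay below every wild-type library, as in 9.37% of all genes. In Irf9 and Irgm1 every one lay above, as in 1165 of the 12651 genes tested.

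**Figure D1:**
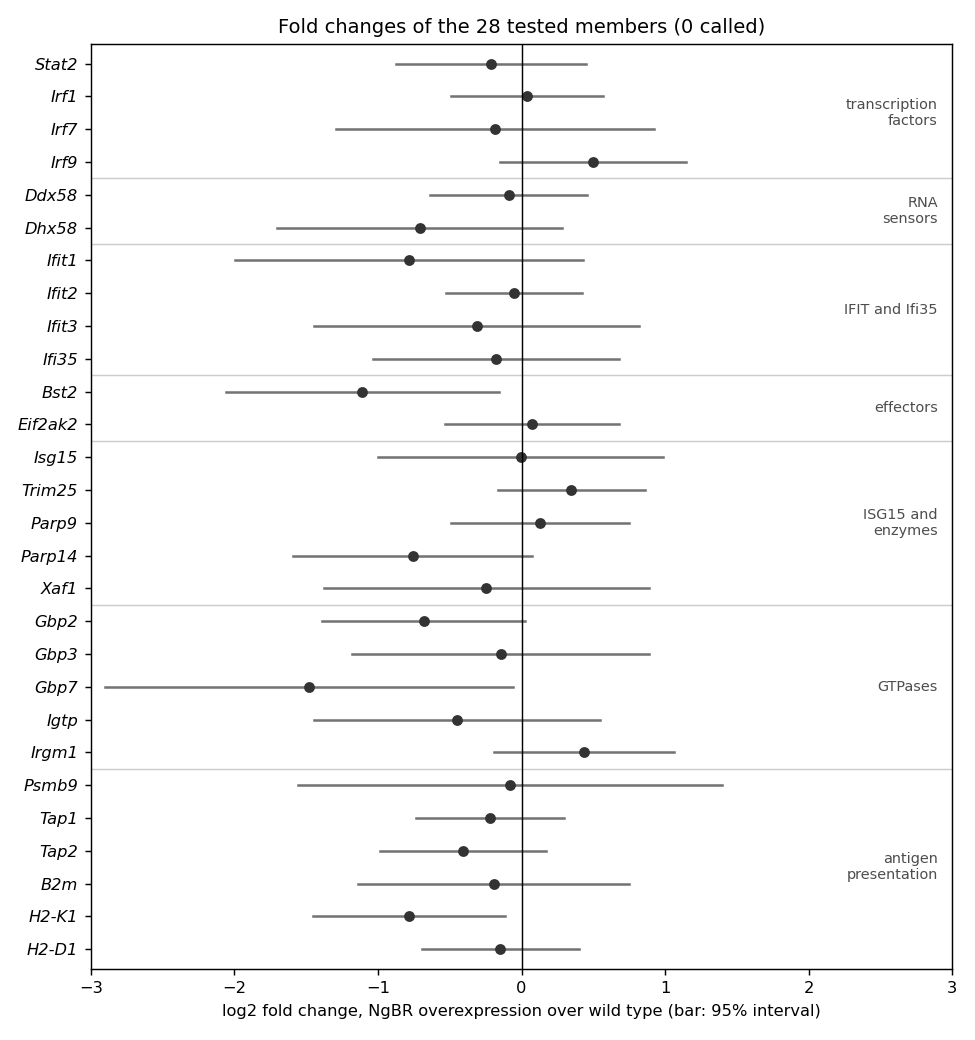
Log2 fold changes of the 28 tested members, NgBR overexpression over wild type, with bars for the 95% interval, ordered by role from top to bottom. Most points lie left of 0, and the intervals of H2-K1, Bst2 and Gbp7 alone do not reach 0.

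The members did not shift evenly across libraries. The median deviation of the 28 members from their mean log2 CPM over the 6 libraries was -0.24, 0.04 and -0.08 in NgBR overexpression libraries 1 to 3. It was 0.27, 0.00 and 0.15 in wild-type libraries 1 to 3, so that wild-type library 2 lay between NgBR overexpression libraries 2 and 3. The lowest library was thus NgBR overexpression library 1, which was also the shallowest. The median log2 fold change of the members was -0.18 without that library. With all libraries thinned to its depth it was -0.13, over the 21 members that then passed the filter.

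**Figure D2:**
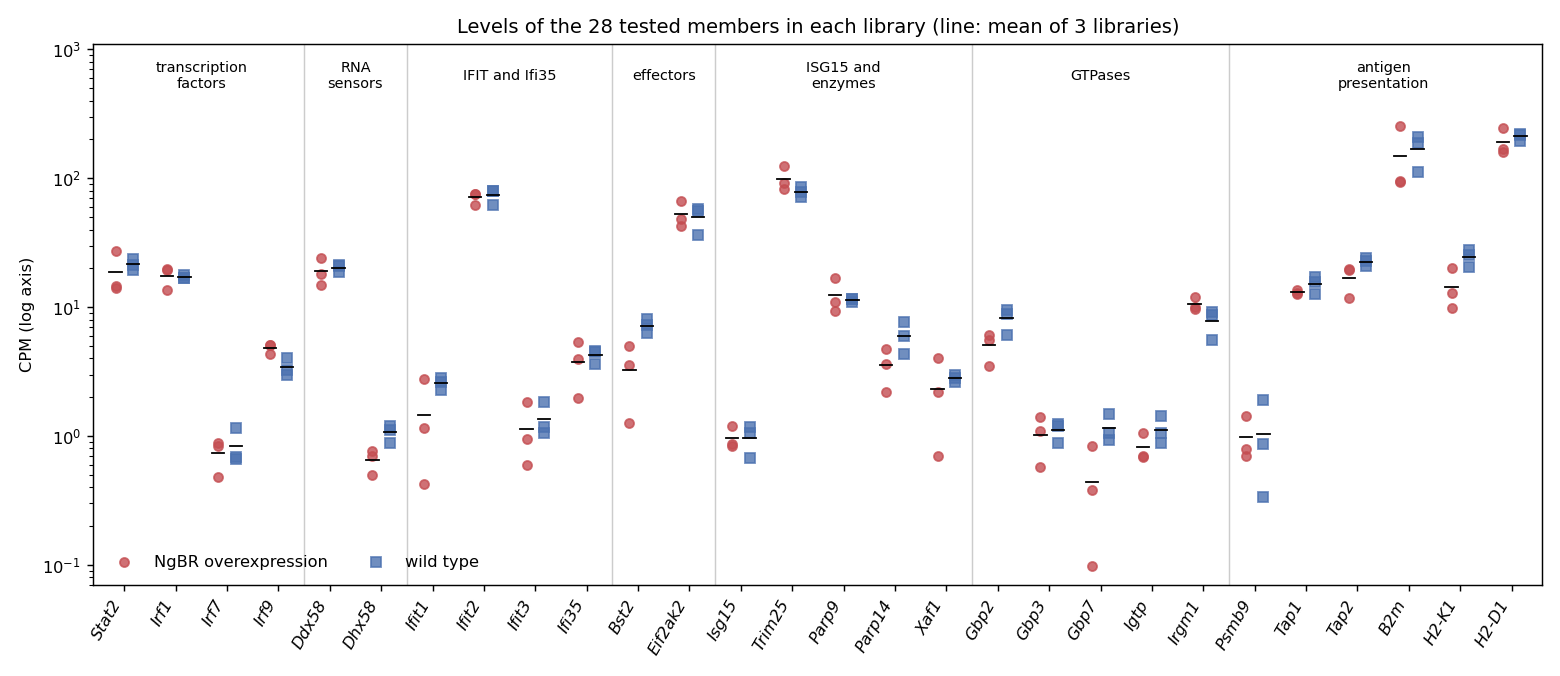
CPM of the 28 tested members in each library on a log axis, with circles for NgBR overexpression, squares for wild type and a line at the mean of 3 libraries. The groups overlap for 20 members; Bst2, H2-K1 and Gbp7 show the separate ranges given in the text.

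The transcription factors that carry the signal were all detected, and none of the 4 was called. Stat2, whose product joins IRF9 in the type I response (chr10:128270559-128292849 on GRCm38, plus strand), had 14.6, 27.1 and 14.0 CPM in the NgBR overexpression libraries, against 23.8, 19.6 and 21.3 CPM in wild type. NgBR overexpression library 2 was the highest of all 6 and the other 2 the lowest, so the groups overlapped (log2 fold change -0.21, SE 0.29, edgeR adjusted p = 0.891). Irf9, the subunit that recognises the ISRE (chr14:55603571-55610030, plus strand), had 5.05, 4.35 and 5.06 CPM, against 2.95, 4.03 and 3.25 CPM in wild type. All 3 NgBR overexpression libraries lay above all 3 of wild type, and the log2 fold change was 0.50 (SE 0.29, 95% interval -0.15 to 1.15, edgeR adjusted p = 0.605). Exons of Irf9 overlap those of Rnf31 on the same strand, so that reads of the 2 genes may be mixed.

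Irf1, a factor that responds to both interferon types, averaged 17.6 ± 3.55 CPM in NgBR overexpression and 17.1 ± 0.652 CPM in wild type (SD, n = 3 each). Irf7, which amplifies the production of type I interferon, averaged 0.737 ± 0.226 CPM in NgBR overexpression and 0.833 ± 0.275 CPM in wild type. Their log2 fold changes were 0.04 and -0.19, and the ranges overlapped for both.

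Upstream of these factors, the receptor chains and kinases were present in both groups, and interferon transcripts were at the limit of detection. In a list of 17 receptors, kinases, regulators and ligands outside the 40 members, 13 were tested, 0 were called and the median log2 fold change was -0.12. The list had 2 genes at an unadjusted p under 0.05 by edgeR, 15.4% of those tested, against 11.4% of all genes. Jak1 averaged 509 CPM in NgBR overexpression and 425 CPM in wild type, and Ifnar1 averaged 99.3 CPM in NgBR overexpression and 96.5 CPM in wild type, the 2 most abundant of the list. Ifnb1, which encodes interferon beta, had 2 counts over the NgBR overexpression libraries and 2 over wild type. Ifna2 had 0 counts in both groups, and Ifng had 0 in NgBR overexpression and 1 in wild type.

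Of the cytoplasmic RNA sensors, Ddx58, which encodes RIG-I (chr4:40203773-40239828, minus strand), had 18.1, 23.9 and 14.9 CPM in the NgBR overexpression libraries, against 20.8, 21.1 and 18.7 CPM in wild type. The NgBR overexpression libraries spanned the wild-type range (log2 fold change -0.09, SE 0.24, edgeR adjusted p = 0.956). Dhx58, which encodes LGP2, a relative of RIG-I that lacks its signalling domains (chr11:100694884-100704271, minus strand), had 0.702, 0.495 and 0.764 CPM, against 1.12, 0.880 and 1.20 CPM in wild type. Each value was lower than each wild-type value (log2 fold change -0.71, SE 0.44, edgeR adjusted p = 0.645). An antisense gene, Dhx58os, overlaps its exons. Ifih1, the gene of the sensor MDA5, was below the filter, with 1 count over the NgBR overexpression libraries and 19 over wild type. The ratio of its pooled CPM was 0.186, with an exact 95% interval of 0.00447 to 1.17.

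Among 10 further genes of nucleic acid sensing, 9 were tested, and 1 was called, while 3.39% of all genes tested were. At an unadjusted p under 0.05 by edgeR there were 2 of the 9, 22.2%, against 11.4% of all genes. Aim2, which encodes a sensor of cytosolic DNA (chr1:173350879-173466040, plus strand), rose to 6.17, 6.53 and 6.78 CPM in the NgBR overexpression libraries, against 1.92, 2.33 and 2.35 CPM in wild type. The log2 fold change was 1.56 (SE 0.28, edgeR adjusted p = 0.0159). The call did not hold without NgBR overexpression library 1 or 3 or wild-type library 1 or 3 (edgeR adjusted p = 0.0592, 0.0546, 0.116 and 0.0788). The median of this list was -0.10.

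The Ifit genes encode proteins that bind viral RNA and lie within 99.3 kb of each other on chromosome 19. Ifit2 (chr19:34550694-34576419, plus strand) was the most abundant of them per kilobase of exon, at 18.1 RPKM in NgBR overexpression and 18.8 RPKM in wild type. In CPM it had 75.1, 75.6 and 62.2 in the NgBR overexpression libraries, against 79.0, 62.4 and 79.6 in wild type. The values were interleaved (log2 fold change -0.05, SE 0.21, 95% interval -0.53 to 0.42, edgeR adjusted p = 0.973).

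Ifit1 (chr19:34640871-34650009, plus strand), the neighbour with 2 ISRE cores, had 0.421, 2.77 and 1.15 CPM in the NgBR overexpression libraries, against 2.81, 2.61 and 2.29 CPM in wild type. Library 2 of NgBR overexpression lay within the wild-type range and libraries 1 and 3 below it (log2 fold change -0.78, SE 0.54, edgeR adjusted p = 0.697). Ifit3 had a log2 fold change of -0.31, and 51.2% of its 50-base windows occur in another transcript, that of its copy Ifit3b, so its count is uncertain. Ifi35, an interferon-induced leucine zipper protein, averaged 3.75 ± 1.69 CPM in NgBR overexpression and 4.24 ± 0.521 CPM in wild type, a log2 fold change of -0.18.

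The oligoadenylate synthetase family includes enzymes that make the messenger that activates RNase L, and none of the 4 members of this group passed the filter. Oas2 had 0 counts in all 6 libraries, which allows up to 0.108 CPM over NgBR overexpression and 0.0307 CPM over wild type at 3 counts a group. Oas1a had 3 counts in NgBR overexpression and 1 in wild type, and Oasl1 had 4 in NgBR overexpression and 7 in wild type. Oasl2, with 9 counts in NgBR overexpression and 40 in wild type, had a ratio of pooled CPM of 0.794 with an interval of 0.339 to 1.66. Such intervals hold for counting error alone and leave out the spread between libraries of a group. PCR copies of a molecule could also not be told from separate molecules. In Oas1a, 57.6% of the 50-base windows occur in other transcripts, among them that of Oas1g.

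The other antiviral effectors split between genes that were plainly expressed and genes at the limit of detection. Bst2 encodes tetherin, which holds budding virus on the cell surface (chr8:71534255-71537456, minus strand). It had 1.26, 3.56 and 4.97 CPM in the NgBR overexpression libraries, against 8.05, 6.26 and 7.25 CPM in wild type. The ranges were separate, and the lowest value was that of NgBR overexpression library 1. The means were 3.26 ± 1.87 CPM in NgBR overexpression and 7.19 ± 0.895 CPM in wild type (SD, n = 3 each). The log2 fold change was -1.11 (SE 0.42, 95% interval -2.06 to -0.16, unadjusted p = 0.0268 and adjusted p = 0.312 by edgeR).

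Eif2ak2, which encodes PKR, a kinase that stops translation when double-stranded RNA is bound (chr17:78852564-78882573, minus strand), had 66.9, 48.2 and 42.5 CPM, against 57.8, 36.2 and 55.8 CPM in wild type. The groups overlapped (log2 fold change 0.07, SE 0.27, edgeR adjusted p = 0.973). Mx1 had 4 counts in each group and Mx2 had 7 in NgBR overexpression and 9 in wild type. Both encode dynamin-like GTPases that block viral nucleocapsids, and the annotation lists Mx2 as a polymorphic pseudogene. Rsad2, the gene of viperin, had 6 counts in NgBR overexpression, all in library 2, and 4 in wild type. Its ratio of pooled CPM was 5.29 with an interval of 1.26 to 25.5, which rests on that library. Cmpk2, a nucleotide kinase gene that lies with Rsad2 within 37.1 kb on chromosome 12, had 3 counts in NgBR overexpression and 19 in wild type, a ratio of 0.557 with an interval of 0.106 to 1.89.

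ISG15 is a ubiquitin-like protein that is joined to other proteins in the response. Isg15 (chr4:156199424-156200818, minus strand), often read as a marker of an active response, was low in both groups. It averaged 0.963 ± 0.194 CPM in NgBR overexpression and 0.970 ± 0.260 CPM in wild type. The log2 fold change was -0.01 (SE 0.44). Usp18, the protease that removes ISG15 and dampens receptor signalling, had 4 counts over NgBR overexpression and 40 over wild type. Its ratio of pooled CPM was 0.353 with an interval of 0.0917 to 0.976, and with no filter on low counts, where 3.27% of genes were called, it was not (edgeR adjusted p = 0.680).

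Trim25, a ubiquitin ligase that activates RIG-I (chr11:88999376-89020293, plus strand), was the most abundant of these enzymes. It had 82.1, 125 and 91.3 CPM in the NgBR overexpression libraries, against 71.9, 85.0 and 77.6 CPM in wild type. The highest value was that of NgBR overexpression library 2, and library 1 lay within the wild-type range (log2 fold change 0.35, SE 0.23, edgeR adjusted p = 0.674). Parp14, an ADP-ribosyltransferase (chr16:35832874-35871544, minus strand), had 3.65, 4.75 and 2.20 CPM, against 5.99, 7.61 and 4.30 CPM in wild type. The ranges overlapped by a single pair of libraries (log2 fold change -0.76, SE 0.37, 95% interval -1.59 to 0.08, edgeR adjusted p = 0.493). Its neighbour Parp9, whose exons overlap the antisense gene Dtx3l, had a log2 fold change of 0.13. Xaf1, which binds the apoptosis inhibitor XIAP, had one of -0.25, with 0.702, 4.06 and 2.20 CPM in the NgBR overexpression libraries and between 2.62 and 2.98 CPM in wild type.

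The guanylate-binding proteins and the immunity-related GTPases attack the vacuoles of intracellular pathogens. Of 6 members, 5 were tested, 4 were negative and the median log2 fold change was -0.45. Gbp7 (chr3:142530342-142550149, plus strand) had 0.842, 0.0989 and 0.382 CPM in the NgBR overexpression libraries, against 1.06, 1.49 and 0.933 CPM in wild type. Each NgBR overexpression value lay below each wild-type value (log2 fold change -1.48, SE 0.63, 95% interval -2.90 to -0.06, unadjusted p = 0.0430 and adjusted p = 0.406 by edgeR). Gbp2, on the same stretch of chromosome 3, had 3.51, 5.54 and 6.12 CPM in the NgBR overexpression libraries, against 9.48, 6.12 and 8.88 CPM in wild type. NgBR overexpression library 3 and wild-type library 2 all but met (log2 fold change -0.68, SE 0.31, edgeR adjusted p = 0.458). Gbp3, between them, had a log2 fold change of -0.15.

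Irgm1, a regulator of the immunity-related GTPases (chr11:48861968-48871683, minus strand), went the other way without being called. It had 9.68, 12.1 and 10.0 CPM in the NgBR overexpression libraries, against 8.71, 5.58 and 9.18 CPM in wild type. The ranges were separate by a narrow margin (log2 fold change 0.44, SE 0.28, edgeR adjusted p = 0.655). Igtp, an effector of this family, averaged 0.815 ± 0.204 CPM in NgBR overexpression and 1.12 ± 0.282 CPM in wild type, a log2 fold change of -0.45, and its exons overlap those of Irgm2. Iigp1 had 1 count in NgBR overexpression and 4 in wild type.

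**Figure D3:**
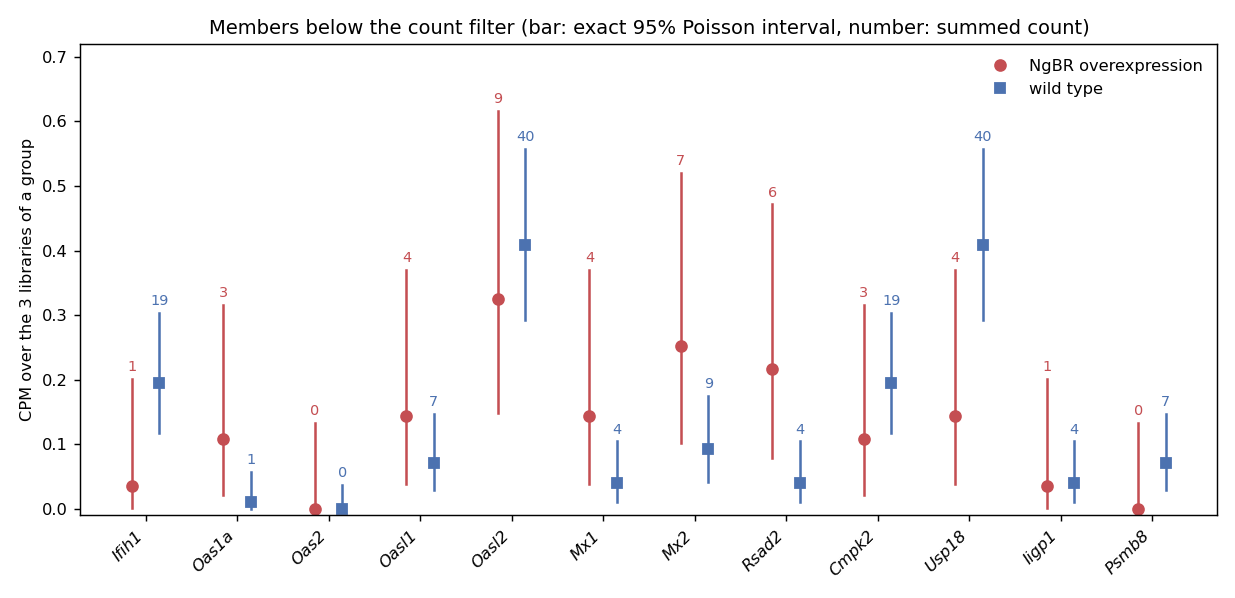
Level of the 12 members below the count filter over the 3 libraries of each group in CPM, with exact 95% Poisson intervals and the summed counts above them. No member exceeds 0.41 CPM in either group, and the intervals of the NgBR overexpression group are the wider ones, as its libraries are shallower.

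The antigen presentation members cover the steps from peptide cutting to the cell surface. All 6 that were tested had negative log2 fold changes, with a median of -0.21, and 0 were called. H2-K1 and H2-D1 encode class I heavy chains, B2m their shared light chain, Tap1 and Tap2 the transporter that brings peptides into the endoplasmic reticulum, and Psmb8 and Psmb9 catalytic subunits of the immunoproteasome. The median deviation of the 6 from their mean log2 CPM was -0.47, -0.19 and 0.22 in NgBR overexpression libraries 1 to 3, against 0.32, -0.02 and 0.25 in wild-type libraries 1 to 3. NgBR overexpression library 3 thus lay among the wild-type libraries.

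H2-K1 (chr17:33996017-34000347, minus strand) had 9.82, 12.8 and 20.1 CPM in the NgBR overexpression libraries, against 25.5, 20.4 and 27.8 CPM in wild type. The ranges were separate, with NgBR overexpression library 3 just under wild-type library 2. The means were 14.2 ± 5.27 CPM in NgBR overexpression and 24.6 ± 3.79 CPM in wild type. The log2 fold change was -0.78 (SE 0.30, 95% interval -1.45 to -0.11, unadjusted p = 0.0265 and adjusted p = 0.311 by edgeR). H2-D1 (chr17:35262730-35267499, plus strand), the other classical heavy chain, had 159, 169 and 244 CPM, against 194, 220.4 and 218 CPM in wild type. NgBR overexpression libraries 1 and 2 lay below and library 3 above all wild-type libraries (log2 fold change -0.15, SE 0.24, edgeR adjusted p = 0.917). Of the 50-base windows of H2-K1 and H2-D1, 9.63% and 12.8% occur in other transcripts, so that reads may be split among class I genes.

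B2m (chr2:122147686-122153083, plus strand) had 95.6, 93.9 and 254 CPM in the NgBR overexpression libraries, against 188, 112 and 207 CPM in wild type. NgBR overexpression library 3 was the highest of all 6 and libraries 1 and 2 were the lowest, so the estimate of -0.19 (SE 0.42, 95% interval -1.14 to 0.75, edgeR adjusted p = 0.941) was imprecise. B2m is short, with 860 exonic bases, and the deviation of log2 CPM across genes was correlated with exonic length within single libraries. Spearman's rho over 12589 genes was 0.0684, 0.347 and -0.467 in NgBR overexpression libraries 1 to 3 and -0.226, 0.242 and -0.299 in wild-type libraries 1 to 3. The part of length in the values of B2m was not tested beyond a fit with offsets for length and GC content, which gave -0.35.

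Tap1, Tap2, Psmb8 and Psmb9 lie within 34.3 kb on chromosome 17. Tap2 had 11.8, 19.4 and 19.6 CPM in the NgBR overexpression libraries, against 22.7, 20.7 and 24.1 CPM in wild type. The ranges were separate (log2 fold change -0.41, SE 0.26, edgeR adjusted p = 0.647). Tap1 lay between 12.7 and 13.7 CPM in NgBR overexpression, against a mean of 15.2 ± 2.21 CPM in wild type, a log2 fold change of -0.22 with overlapping ranges. Psmb9, whose exons overlap those of Tap1 on the opposite strand, had 0.702, 0.791 and 1.43 CPM in the NgBR overexpression libraries, against 1.92, 0.338 and 0.873 CPM in wild type. The wild-type values spanned those of NgBR overexpression (log2 fold change -0.08, SE 0.65). Psmb8 had 0 counts over the NgBR overexpression libraries, which allows up to 0.108 CPM at 3 counts, and 7 counts over wild type, or 0.0717 CPM, so its absence from the first group was not detectable as a difference at this depth.

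Per kilobase of exon, the immunoproteasome subunits were scarce beside the standard subunits whose places they take. Psmb9 averaged 0.267 ± 0.109 RPKM in NgBR overexpression and 0.285 ± 0.220 RPKM in wild type. Its standard counterpart Psmb6 averaged 61.3 ± 22.2 RPKM in NgBR overexpression and 61.6 ± 7.68 RPKM in wild type. Psmb5, the counterpart of Psmb8, averaged 57.9 ± 19.5 RPKM in NgBR overexpression and 66.7 ± 5.35 RPKM in wild type. Psmb10, the remaining inducible subunit, was higher than the other 2 inducible ones, at 3.96 ± 1.71 RPKM in NgBR overexpression and 5.19 ± 1.10 RPKM in wild type. Of 14 standard proteasome genes, 14 were tested, 0 were called at an adjusted p under 0.05 and 0 had an unadjusted p under 0.05 by edgeR, with a median log2 fold change of 0.05. The most abundant of them in CPM, Psmb1 and Psmb7, had log2 fold changes of -0.10 and -0.01. B2m was the most abundant member per kilobase, at 172 ± 107 RPKM in NgBR overexpression and 197 ± 58.9 RPKM in wild type, and H2-D1 followed at 73.8 ± 18.0 RPKM in NgBR overexpression and 81.7 ± 5.64 RPKM in wild type. H2-K1 averaged 4.84 RPKM in NgBR overexpression and 8.37 RPKM in wild type.

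**Figure D4:**
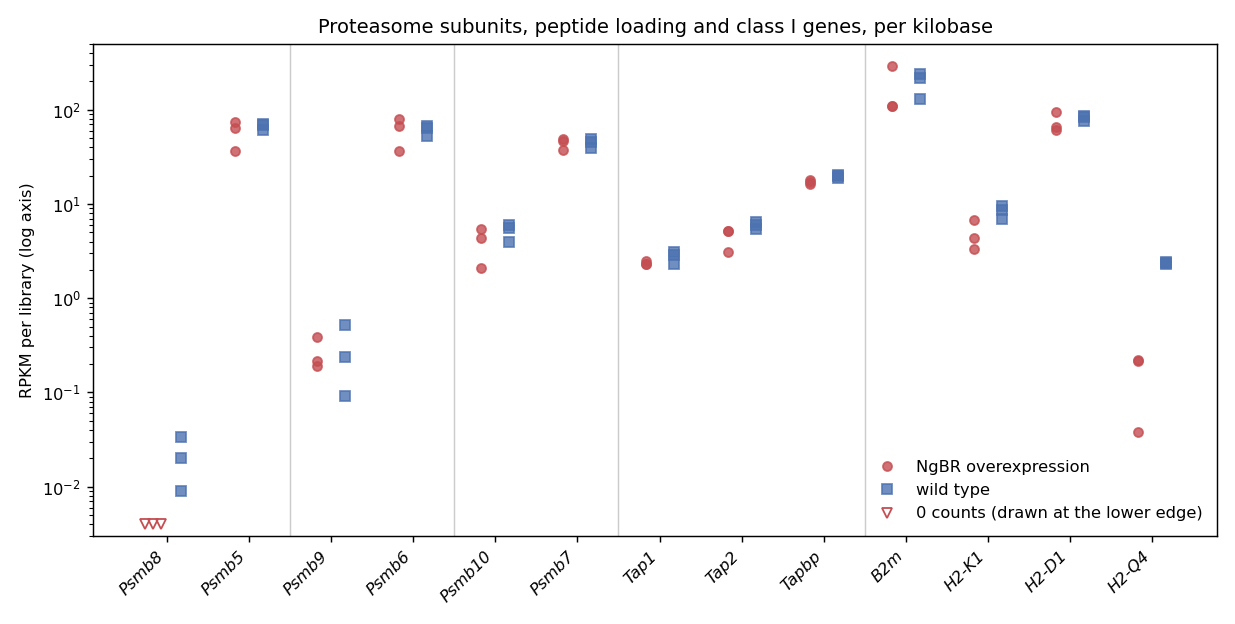
RPKM in each library on a log axis for inducible proteasome subunits beside their standard counterparts, for peptide loading genes and for class I genes, with circles for NgBR overexpression and squares for wild type. Psmb8 and Psmb9 lie far below Psmb5 and Psmb6 in both groups, and among genes with counts in both groups H2-Q4 alone shows a wide gap between them.

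Other genes of class I presentation were read from a list of 17, of which 16 were tested. Of these, 12 were negative, the median log2 fold change was -0.31 and 1 was called, while 3.39% of all genes tested were. At an unadjusted p under 0.05 by edgeR there were 2 of the 16, 12.5%, against 11.4% of all genes. H2-Q4, a nonclassical class I gene (chr17:35379617-35385290, plus strand), fell to 0.561, 0.0989 and 0.573 CPM in the NgBR overexpression libraries, against 5.99, 6.23 and 6.20 CPM in wild type. The log2 fold change was -3.92 (SE 0.48, edgeR adjusted p = 0.00279). This call held under all 18 alternative settings. Of its 50-base windows, 36.4% occur in other transcripts, so the count is uncertain between class I copies. Of 7 class II presentation genes 2 were tested, H2-DMa and H2-DMb1, with 0 called and log2 fold changes of 0.10 and -0.06.

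Beyond the members, 49 of 50 listed interferon-stimulated genes were in the table and 37 were tested. Of these, 1 rose and 2 fell, beside 2.04% and 1.35% of all genes, 20 were negative and the median log2 fold change was -0.07. An unadjusted p under 0.05 by edgeR was reached by 7 of the 37, 18.9%, against 11.4% of all genes. Every NgBR overexpression library lay below every wild-type library in 8 of the 37, against 9.37% of all genes. Every one lay above in 3 of the 37, against 1165 of the 12651 genes tested. Parp12, an ADP-ribosyltransferase of the same family as Parp9 and Parp14 (chr6:39086410-39118349, minus strand), fell to 0.421, 0.198 and 0.287 CPM in the NgBR overexpression libraries, against 5.44, 6.43 and 5.93 CPM in wild type. The log2 fold change was -4.32 (SE 0.41, edgeR adjusted p = 0.000756). The Parp12 call held under all 18 alternative settings. Among the 12 genes of this list below the filter, Ccl5, a chemokine, and Gbp4, a guanylate-binding protein, were singled out after their values were seen. Ccl5 had 1 count in NgBR overexpression and 51 in wild type, a ratio of pooled CPM of 0.0692 with an exact 95% interval of 0.00172 to 0.403. Gbp4 had 1 count in NgBR overexpression and 48 in wild type, a ratio of 0.0735 with an interval of 0.00182 to 0.429. With no filter on low counts neither was called (edgeR adjusted p = 0.0912 and 0.123). The RefSeq windows of Parp12, H2-Q4 and Aim2 held neither an ISRE core nor a GAS.

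The row listed as Gbp6 fell to 0.509 ± 0.191 CPM in NgBR overexpression, against 2.52 ± 0.633 CPM in wild type (log2 fold change -2.30, edgeR adjusted p = 0.0289). The annotation names its identifier Gm43302, and 100% of its 50-base windows occur in other transcripts, so the gene is uncertain. Ifi27l2a, a small interferon-induced gene (chr12:103442167-103443680, minus strand), rose to 1.27 ± 0.274 CPM in NgBR overexpression, against 0.240 ± 0.104 CPM in wild type (log2 fold change 2.37, edgeR adjusted p = 0.0390). Neither call held when any 1 of the 6 libraries was left out. The edgeR adjusted p of the Gbp6 row was then 0.109, 0.0823 and 0.0719 without NgBR overexpression libraries 1 to 3, and 0.0765, 0.0701 and 0.0703 without wild-type libraries 1 to 3. That of Ifi27l2a was 0.104, 0.0997 and 0.157 without NgBR overexpression libraries 1 to 3, and 0.0929, 0.0937 and 0.154 without wild-type libraries 1 to 3.

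**Figure D5:**
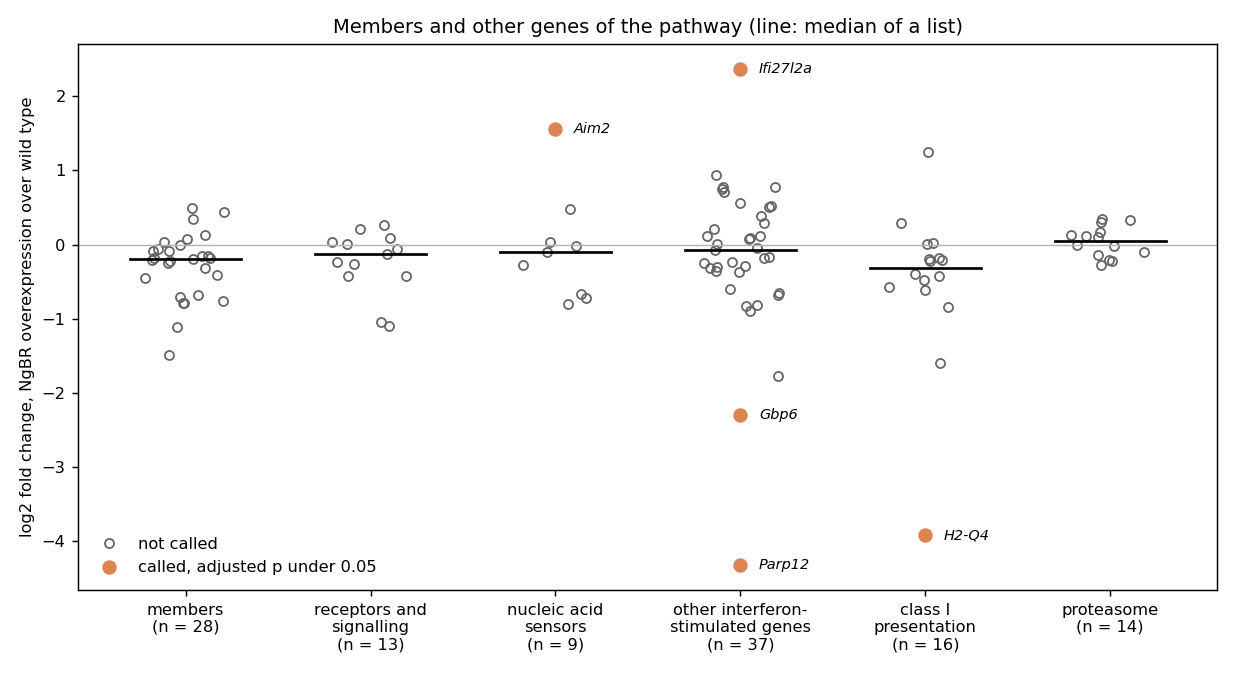
Log2 fold changes, NgBR overexpression over wild type, of the tested members and of other pathway lists, with a line at each median and filled points for genes called at an adjusted p under 0.05. The 28 members hold no called gene, and the 5 called genes Aim2, Ifi27l2a, Gbp6, Parp12 and H2-Q4 lie in the other lists.

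The 13 tested members with an ISRE core in the promoter window had a median log2 fold change of -0.21 and a range of -1.48 to 0.44, and 11 were negative. The 11 tested members without the core had a median of -0.15 and a range of -0.78 to 0.50, and 8 were negative. Dhx58, Parp9, Parp14 and Tap2 were tested but had no matched window, so they are in neither set. Their log2 fold changes were -0.71, 0.13, -0.76 and -0.41.

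Markers of cell types that also express these genes were low. Of 13 leukocyte markers, 3 were tested, 0 were called (0 at an unadjusted p under 0.05 by edgeR), and 6 had 0 counts over NgBR overexpression and 1 over wild type. Their summed level was between 8.84 and 12.4 CPM in NgBR overexpression and at least 14.5 CPM in wild type, mostly from Cd14 and Cd68, and the defining marker Ptprc had 2 counts in NgBR overexpression and 21 in wild type. The part of these transcripts in the member values was not tested. Endothelial markers summed to 0.842 to 2.10 CPM in NgBR overexpression and 0.643 to 0.945 CPM in wild type, led by Pecam1 and Cdh5, and epithelial markers to 0.791 to 2.39 CPM in NgBR overexpression and 0.237 to 0.773 CPM in wild type, led by Krt14 and Cdh1. Of 10 fibroblast markers 10 were tested, and 1, Fap, rose to 1.22 ± 0.525 CPM in NgBR overexpression, against 0.114 ± 0.0254 CPM in wild type (edgeR adjusted p = 0.0110). Of all genes tested, 2.04% were called higher. Fap was not called without NgBR overexpression library 3 or wild-type library 1 (edgeR adjusted p = 0.0718 and 0.0645). The list summed to 21389 to 32196 CPM in NgBR overexpression and 20620 to 24588 CPM in wild type. Among its collagen and receptor genes, Col1a1 averaged 4562 ± 995 CPM in NgBR overexpression and 3031 ± 229 CPM in wild type, and Pdgfra averaged 644 ± 189.6 CPM in NgBR overexpression and 951 ± 53.9 CPM in wild type. Their ranges were separate, in opposite directions, and neither was called (edgeR adjusted p = 0.591 and 0.536). Both are named outside the rule for naming genes given below. In this list 3 of 10 genes had separate ranges, 30%, against 18.6% of all genes. Col1a2, Col3a1 and Pdgfrb had overlapping ranges and log2 fold changes of -0.01, 0.10 and -0.12.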

How the data were processed

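The authors deposited raw counts of each gene in 6 libraries, not normalized. HISAT2 2.0.5, featureCounts 1.5.0-p3, DESeq2 and mm10 are named in the submitters' processing notes. The annotation release, strand setting and filters were not stated there or in the labels, so reads of overlapping, antisense or near-identical genes may be mixed. The members and gene lists were chosen with earlier results of these data known.

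Counts were tested with edgeR 4.0.16 (quasi-likelihood, TMM factors, filterByExpr, no covariate) in R 4.3.3, over 12651 genes. SE is the size of the log2 fold change over the root of F. CPM are on TMM-scaled library sizes, RPKM are CPM per kilobase of merged GENCODE vM21 exons on GRCm38 (mm10), which held 97.8% of identifiers. Intervals of pooled counts are exact at 95% for counting error alone. Shared 50-base windows were counted between transcripts. The scripts were tested on simulated data. Named by rule were the most abundant and the most shifted tested member of each role, Nus1, and up to 4 called genes of each list, or its 2 most abundant. Alternatives were RLE, upper-quartile or no factors, DESeq2 1.42.0, limma-voom (3.58.1), 2 other filters, thinning, length and GC offsets, a replicate block, and leaving libraries out.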

Additional observations from a re-analysis of the deposited data

How the results depend on the processing

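The count of called members was 0 under all 18 alternatives, where the lowest edgeR adjusted p of a member was 0.0886. The median log2 fold change, over those of the 28 members that a setting tested, stayed negative, from -0.35 to -0.10. It was -0.35 without both libraries numbered 2, a setting chosen after the data were seen. Of all genes, 429 were called, 726 by DESeq2, 688 with no filter and 225 to 374 without 1 library. Matching of the libraries by replicate number was partial, with correlations of deviations of 0.0147, 0.341 and 0.434 for numbers 1 to 3. NgBR overexpression library 2 had -0.179 and -0.399 with wild-type libraries 1 and 3. NgBR overexpression library 3 had 0.189 and -0.367 with wild-type libraries 1 and 2. NgBR overexpression library 1 correlated no better with wild-type library 1 than with library 3 (0.0174). With the replicate number as a block, 719 genes and 0 members were called. The sign held in every setting for 15 tested members and turned in at least 1 for 13, with causes not tested. Isg15 was 0.0099 with RLE, 0.0079 with upper-quartile factors, 0.065 with limma-voom, 0.013 with a minimum of 1 CPM and 0.020 with the block. Psmb9 was 0.20 with limma-voom, 0.16 with the block and 0.22 with the block and offsets. Irf1 was -0.011 with no filter, and Ifit3 was 0.082 after thinning. Without both libraries numbered 2, Irf1 was -0.022, Ifi35 0.19, Eif2ak2 -0.060 and Parp9 -0.18. Without 1 library, Irf1 ranged from -0.063 to 0.19, Irf7 from -0.38 to 0.063, Ddx58 from -0.30 to 0.059, Ifit2 from -0.16 to 0.032, Ifi35 from -0.54 to 0.13 and Eif2ak2 from -0.15 to 0.21. Isg15 ranged from -0.20 to 0.15, Parp9 from -0.17 to 0.29, Xaf1 from -0.90 to 0.14, Gbp3 from -0.42 to 0.16, Psmb9 from -0.49 to 0.080 and B2m from -0.83 to 0.045. Depth limits the 12 members below the filter to the ratios given.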
